A study of Mus musculus with 48 samples.

Results

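The step from late subjective day to early subjective night was read from 12 of the 48 hourly liver pools. The late day group held the pools at circadian hours 8 to 10 (CT32, CT33 and CT34 of the first cycle, CT56, CT57 and CT58 of the second). The early night group held those at hours 13 to 15 (CT37, CT38, CT39, CT61, CT62 and CT63). Membership was set by the hour of the pool, and the hours were picked with earlier results of these data known. All came from 6-week-old male C57BL/6J mice that had been entrained for 1 week to days of 12 h of light and 12 h of darkness, then kept in constant darkness and killed in the dark. Hours are circadian time (CT), so that hour 12 is the former time of lights off. Each pool mixed liver RNA from 3 to 5 mice on 1 Affymetrix array, whole liver was used, and no genotype or treatment differed between the groups. Every pool is a different hour, so the spread within a group of 6 holds the change over 3 h and between cycles as well as the difference between pools of mice.

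In the mammalian clock, CLOCK and ARNTL (BMAL1) activate genes through E-boxes, among them the PER and CRY proteins that repress them and the REV-ERB receptors (Nr1d1, Nr1d2) that repress Arntl. The PAR bZIP factors DBP, TEF and HLF carry the rhythm to enzymes and transporters. A mouse begins to move and feed at dusk, and its body temperature rises at that time. Heat shock factor 1 switches on the cytosolic chaperones through heat shock elements, whereas the cold-inducible RNA binding protein CIRBP is made at lower temperature.

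Stretches of promoter are printed for genes whose RNA rose or fell at dusk below, so that the elements named above can be seen. All come from RefSeq on mouse build GRCm38.p6, run 5′ to 3′ on the strand of the gene, and lie within the 250 bases before its annotated start. The first 4 belong to heat shock genes, and capitals mark the paired heat shock element units GAANNTTC. Hspa1b lies at chr17:34959290-34959387 (minus strand), Hspb1 at chr5:135887757-135887874 (plus strand), Dnaja1 at chr4:40722299-40722396 (plus strand) and Hspe1 at chr1:55088019-55088116 (plus strand).
Hspa1b: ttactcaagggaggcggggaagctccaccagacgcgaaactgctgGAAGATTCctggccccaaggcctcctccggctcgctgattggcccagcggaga
Hspb1: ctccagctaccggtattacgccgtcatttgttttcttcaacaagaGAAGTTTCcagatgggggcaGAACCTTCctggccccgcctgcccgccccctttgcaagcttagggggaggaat
Dnaja1: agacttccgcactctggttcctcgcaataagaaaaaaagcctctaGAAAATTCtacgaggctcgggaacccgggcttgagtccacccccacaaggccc
Hspe1: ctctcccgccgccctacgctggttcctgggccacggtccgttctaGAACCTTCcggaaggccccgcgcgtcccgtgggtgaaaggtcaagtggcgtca
In the next 2 stretches capitals mark the E-box CACGTG. The clock repressor gene Cry1 lies at chr10:85185064-85185159 (minus strand) and the PAR bZIP gene Tef at chr15:81802501-81802596 (plus strand).
Cry1: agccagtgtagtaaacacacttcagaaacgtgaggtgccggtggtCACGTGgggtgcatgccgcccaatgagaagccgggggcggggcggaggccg
Tef: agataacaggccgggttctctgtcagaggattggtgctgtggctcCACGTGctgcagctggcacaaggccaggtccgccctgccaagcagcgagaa
In the last, Creld2 at chr15:88819475-88819583 (plus strand), capitals mark the endoplasmic reticulum (ER) stress element, which here reads on the opposite strand.
Creld2: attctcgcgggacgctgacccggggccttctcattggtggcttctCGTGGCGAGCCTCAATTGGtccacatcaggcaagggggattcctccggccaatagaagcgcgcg

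Both strands of every promoter were searched for these letters, and 14452 of the genes measured had a promoter in the table. GAANNTTC stood in the promoters of 8 of 20 heat shock genes (40%), against 6.62% of the genes measured and 7.73% of all 27025 RefSeq genes with a promoter. Among all genes that rose at dusk its share was 7.77%, and among those that fell 6.33%. CACGTG stood in 4 of 13 clock genes (30.8%), in 8.73% of the genes measured, in 11.7% of those that rose and in 12% of those that fell. The ER stress element stood in 7 of 16 ER chaperone genes (43.8%) and in 0.13% of all RefSeq genes with a promoter. These are matches of letters and were not read as binding sites.

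The values are probe set intensities, compared on the log2 scale over all 45101 probe sets with limma, with the cycle as a covariate. A probe set was called when its Benjamini-Hochberg adjusted p was under 0.05. Each gene was read through its brightest probe set (18193 genes). The arrays at CT61, CT62 and CT63 stood apart: their median correlations with the other arrays were 0.9842, 0.9881 and 0.9903, against 0.992 to 0.9947 for the other 9 pools. The 75th percentile of intensity was 797.1 to 831.9 in these 3 and 949.8 to 1028.9 in the 9. The counts over all genes and the steps of some genes are therefore given in the first cycle too. A fit of hour means over 42 pools, without the arrays from CT60 to CT65, was added after seeing the data. In it each early night hour kept only its pool of the first cycle. Its error therefore came from hours with a pool in both cycles, and held no spread between early night pools. Calls in this fit are given below with that limit.

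Of the probe sets 1473 were called higher (3.27%) and 2011 lower (4.46%), 7.72% in all. Quantile normalization turned this split to 1904 higher and 1563 lower, and leaving out CT56 cut the counts to 751 and 953. At dusk 810 genes were higher in early night (4.45% of all genes) and 1201 were lower (6.6%), 11.1% together. The falls were larger in size: 177 genes fell and 43 rose by over 2-fold, and the median change was -0.64 for genes that fell and 0.45 for genes that rose. All 2011 genes had the same sign in both cycles, which a call over both favours. The median rise was 0.36 in cycle 1 and 0.52 in cycle 2, and the median fall was -0.38 and -0.86. The fall was larger in the second cycle for 90.8% of the genes called lower, and the rise for 72.7% of those called higher. The pools of the 2 groups did not overlap in either cycle for 549 of the genes that rose and 780 of those that fell. A call made with these pools favours this, and over all genes such a pattern held for 3.66% upward and 4.88% downward.

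The first cycle alone, 3 pools against 3, gave no call (0 genes, smallest adjusted p = 0.0563), although 2194 genes had an unadjusted p under 0.05 in it. Among these were 576 of the 810 genes that rose and 781 of the 1201 that fell, which a call made with the first-cycle pools favours. The second cycle alone called 716 genes higher and 1709 lower. Of these, 88.4% and 80.9% had the same sign in the first cycle, which they had not been chosen on, against 57.0% and 43.0% of all genes. Their first-cycle groups did not overlap for 40.6% and 34.8%, against 7.67% and 7.10% of all genes. The fit without CT60 to CT65 called 470 genes higher (2.58%) and 384 lower (2.11%). Of the genes called over both cycles, 228 that rose and 303 that fell were called in it, and 809 of 810 and all 1201 had the same sign. All its late day and early night pools had also entered the calls over both cycles, so the same sign was nearly fixed in advance. Its error did not hold the spread between early night pools, whereas that of the first cycle alone, which gave no call, did.

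**Figure D1:**
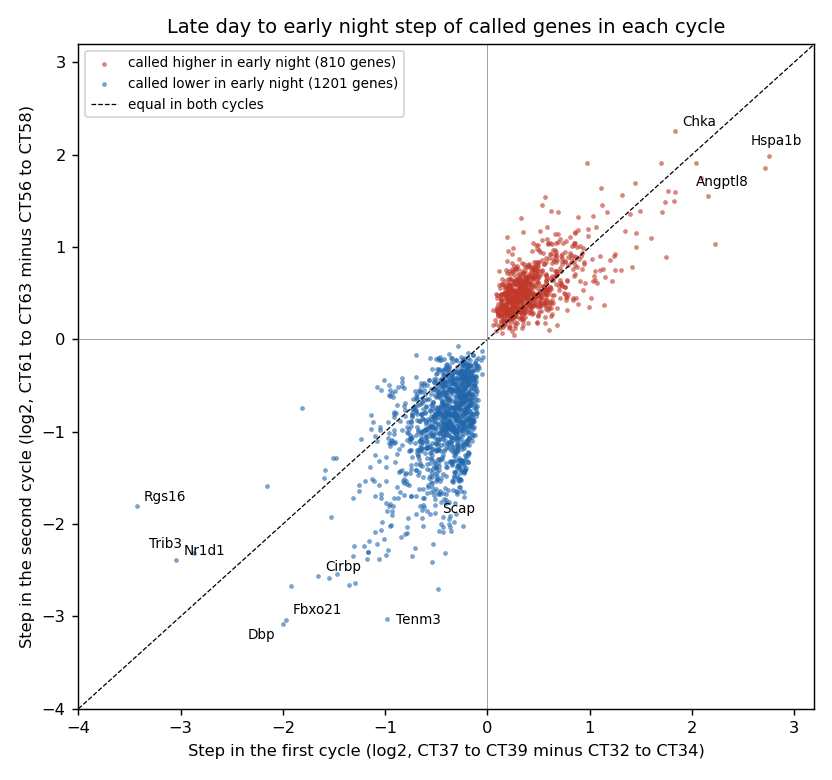
Step of each called gene in the first cycle (x axis, log2 intensity, CT37 to CT39 minus CT32 to CT34) against the second (y axis, log2 intensity, CT61 to CT63 minus CT56 to CT58), with the 810 genes called higher in red, the 1201 called lower in blue and the line of equal steps dashed. Every called gene lies in the quadrant of 1 direction, and most blue points lie below the line, where the fall was larger in the second cycle.

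Among genes whose groups did not overlap in either cycle, Hspa1b, an inducible cytosolic HSP70, had the largest rise. Its intensity was 8340 at the lowest, 12267 at the median and 19044 at the highest of the 6 late day pools, and 31311, 68189 and 125676 in early night. No pool of one group reached into the other, and CT38 was the highest of all 48 pools. The rise was 2.37 ± 0.35 (log2, SE; 5.18-fold, adjusted p = 0.00548), 2.76 in cycle 1 and 1.99 in cycle 2. Angptl8, a feeding-induced inhibitor of lipoprotein lipase, rose by 2.29 ± 0.49 (adjusted p = 0.0219), from 2079 to 15151 in late day to 15599 to 36002 in early night. Its adjusted p was 0.0514 without CT32 and 0.052 without CT62. Chka, a choline kinase of phosphatidylcholine synthesis, went from 174, 373 and 568 to 1243, 1502 and 1732 (lowest, median and highest; 2.04 ± 0.24, adjusted p = 0.00265). The highest late day pool was below the lowest early night pool for each of these 3 genes.

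Ppp1r3b, which brings protein phosphatase 1 to glycogen, rose by 1.92 ± 0.36 (adjusted p = 0.012), from 4684 to 20323 in late day to 29083 to 47252 in early night. G0s2, an inhibitor of the lipase ATGL, rose by 1.81 ± 0.25 (adjusted p = 0.0048), and Rcan1, an inhibitor of calcineurin, by 1.69 ± 0.24 (adjusted p = 0.0048). Tfrc, the transferrin receptor, rose by 1.57 ± 0.24 (adjusted p = 0.00622), and all 5 of its other probe sets were called higher as well. Tsc22d3, a glucocorticoid-induced leucine zipper gene, rose by 1.54 ± 0.21 (adjusted p = 0.00458). Tcim rose by 1.61 ± 0.16 (adjusted p = 0.00205), Nat8f5 by 1.72 ± 0.26 (adjusted p = 0.00616) and Slc45a3 by 1.63 ± 0.27 (adjusted p = 0.00852). Nrg4, a secreted neuregulin, rose by 1.66 ± 0.37 (adjusted p = 0.0255). Its early night pool at hour 15 was as low as 1465 and overlapped the late day range of 539 to 1528 across cycles. Kbtbd8 completed the 15 with 1.44 ± 0.34 (adjusted p = 0.0304). The call of Nrg4 was lost in each fit leaving out 1 of CT32, CT33, CT38, CT56, CT57, CT61 or CT62 (adjusted p = 0.0525 to 0.0693), and that of Kbtbd8 in each fit leaving out 1 of CT32, CT38, CT56, CT57, CT58 or CT63 (0.0585 to 0.0702). All 15 were called higher in the fit without CT60 to CT65 too.

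The largest fall was that of Nr1d1, the REV-ERB alpha repressor of Arntl. It was at 431, 979 and 2512 in late day and 122, 124 and 222 in early night (lowest, median and highest), without overlap. The fall was -2.72 ± 0.33 (adjusted p = 0.00308), -3.04 in cycle 1 and -2.39 in cycle 2. Rgs16, a brake on G protein signalling, fell by 2.62 ± 0.40 on the log2 scale (adjusted p = 0.00646) and Trib3, a stress-induced pseudokinase that binds AKT, by 2.59 ± 0.29 (adjusted p = 0.00254). Dbp fell by 2.54 ± 0.32 (adjusted p = 0.00344), from 88918 to 126895 in late day to 8395 to 47247 in early night. Fbxo21, a subunit of a ubiquitin ligase, fell by 2.50 ± 0.25 (adjusted p = 0.00205) and had its lowest value of all 48 pools at CT63. Each of these 5 genes had larger values in every late day pool than in any early night pool.

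Ppargc1b, a coactivator of mitochondrial and lipid genes, fell by 2.06 ± 0.27 on the log2 scale (adjusted p = 0.00411), Slc8b1, the mitochondrial sodium-calcium exchanger, by 2.01 ± 0.31 (adjusted p = 0.00613) and Tcp11l2 by 2.0 ± 0.35 (adjusted p = 0.00934). Ulk1, a kinase that starts autophagy, fell by 1.78 ± 0.27 (adjusted p = 0.00643), Abcg8, a sterol exporter into bile, by 1.77 ± 0.27 (adjusted p = 0.00616) and Clec2h by 1.87 ± 0.30 (adjusted p = 0.00686). Tenm3 fell by 2.01 ± 0.36 (adjusted p = 0.0102), by 0.98 in cycle 1 and 3.03 in cycle 2, and these 2 steps differed (adjusted p = 0.0175). Egr1, an immediate early transcription factor, and 4931408D14Rik fell by 2.30 ± 0.41 and 1.97 ± 0.29 over both cycles (adjusted p = 0.0101 and 0.00559). These 2 of the 15 were not called without CT60 to CT65 (adjusted p = 0.0815 and 0.169), where the other 13 were.

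Of 24 measured heat shock proteins and partners, 14 were called higher at dusk (58.3%, where 4.45% of all genes were) and 1 lower (4.17%, against 6.6%). The median change of the list was 0.69, and that of all genes 0.02. In the first cycle 22 of the 24 changed upward and in the second 19. In the fit without CT60 to CT65, 16 were called higher and 0 lower. This list was drawn up with earlier results of these data known, and its count is a description. The shares of all genes, 4.45% higher and 6.6% lower, are the background for the counts of every list below.

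Hsph1, an HSP110 that recharges HSP70, followed Hspa1b in size. It was at 2920, 5830 and 6828 in late day and 9190, 18831 and 28496 in early night, and rose by 1.86 ± 0.31 (adjusted p = 0.00857). Hsp90aa1, the inducible cytosolic HSP90, went from 32816, 39376 and 47710 to 72661, 112362 and 141031 (1.44 ± 0.15, adjusted p = 0.00205). In both genes every early night pool was above every late day pool. Hspe1, a co-chaperonin of mitochondria rather than cytosol, had a small rise with little spread, from 79421, 84344 and 87569 to 100694, 114969 and 121110 (0.44 ± 0.03, adjusted p = 0.000597). Chordc1, an HSP90 co-chaperone, rose by 1.14 ± 0.13, and the HSP40 proteins Dnaja1 and Dnajb4 by 0.87 ± 0.10 and 0.80 ± 0.09 (adjusted p = 0.00254 to 0.00276). A further HSP40, Dnajb1, rose by 1.07, and the HSP110 relative Hspa4l by 1.26. The constitutive HSP70 Hspa8 rose by 0.64, the HSP90 partners Fkbp4 and Ahsa2 by 0.66 and 0.63, and the HSP70-HSP90 adaptor Stip1 by 0.85 (adjusted p = 0.00864 to 0.0248). Stip1 was not called in any fit leaving out 1 of CT32, CT38, CT56, CT62 or CT63 (adjusted p = 0.0506 to 0.0679).

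The small heat shock protein Hspb1, printed above with 2 matches in its promoter, rose by 0.999 ± 0.259 over both cycles (adjusted p = 0.0443). The call was lost in each fit leaving out 1 of 10 of the 12 pools (adjusted p = 0.05 to 0.0993, CT37 and CT61 being the exceptions), and was held without CT60 to CT65 (adjusted p = 0.00178). Hspa1a is nearly identical in sequence to Hspa1b, so the Hspa1b probe set may read both. The probe set named for Hspa1a had a mean of only 82.7, and its change was 0.99 ± 0.44 (adjusted p = 0.239). Hspa4, a further HSP110, was the member called lower, at -0.34 ± 0.05 (adjusted p = 0.00458). Its probe sets disagreed, as the next brightest changed by 0.44 ± 0.11 (adjusted p = 0.0398) and the other 2 were not called. Without CT60 to CT65 the fall of the brightest was not called (adjusted p = 0.217).

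**Figure D2:**
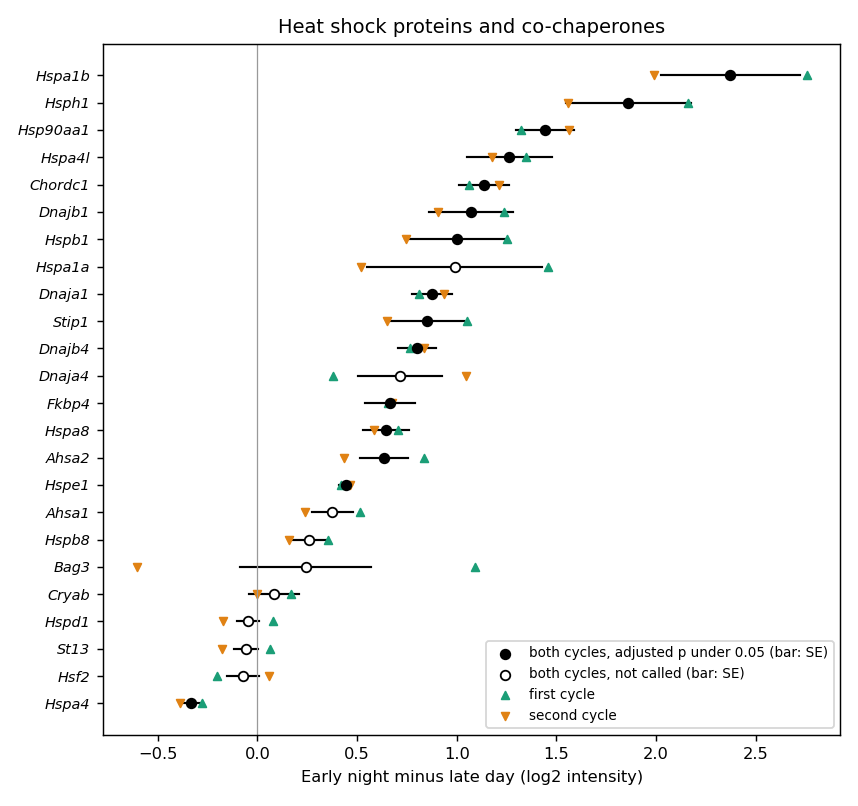
Change from late day to early night (x axis, log2 intensity) of the 24 measured heat shock genes over both cycles (circles, filled where adjusted p is under 0.05, bars the SE) and in the first and second cycle alone (triangles). The 15 filled genes run from Hspa1b at 2.37 to Hspa4 at -0.34.

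Cirbp, the cold-inducible RNA binding protein, moved the opposite way. Its late day values were 816, 1177 and 1270 and its early night values 110, 253 and 564 (lowest, median and highest), without overlap. The fall was -2.11 ± 0.31 (adjusted p = 0.00572), -1.65 in cycle 1 and -2.57 in cycle 2, and it was called without CT60 to CT65 (-1.65, adjusted p = 0.00531). In both cycles its intensity was lower at each hour from 13 to 15 than at the hour before.

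**Figure D3:**
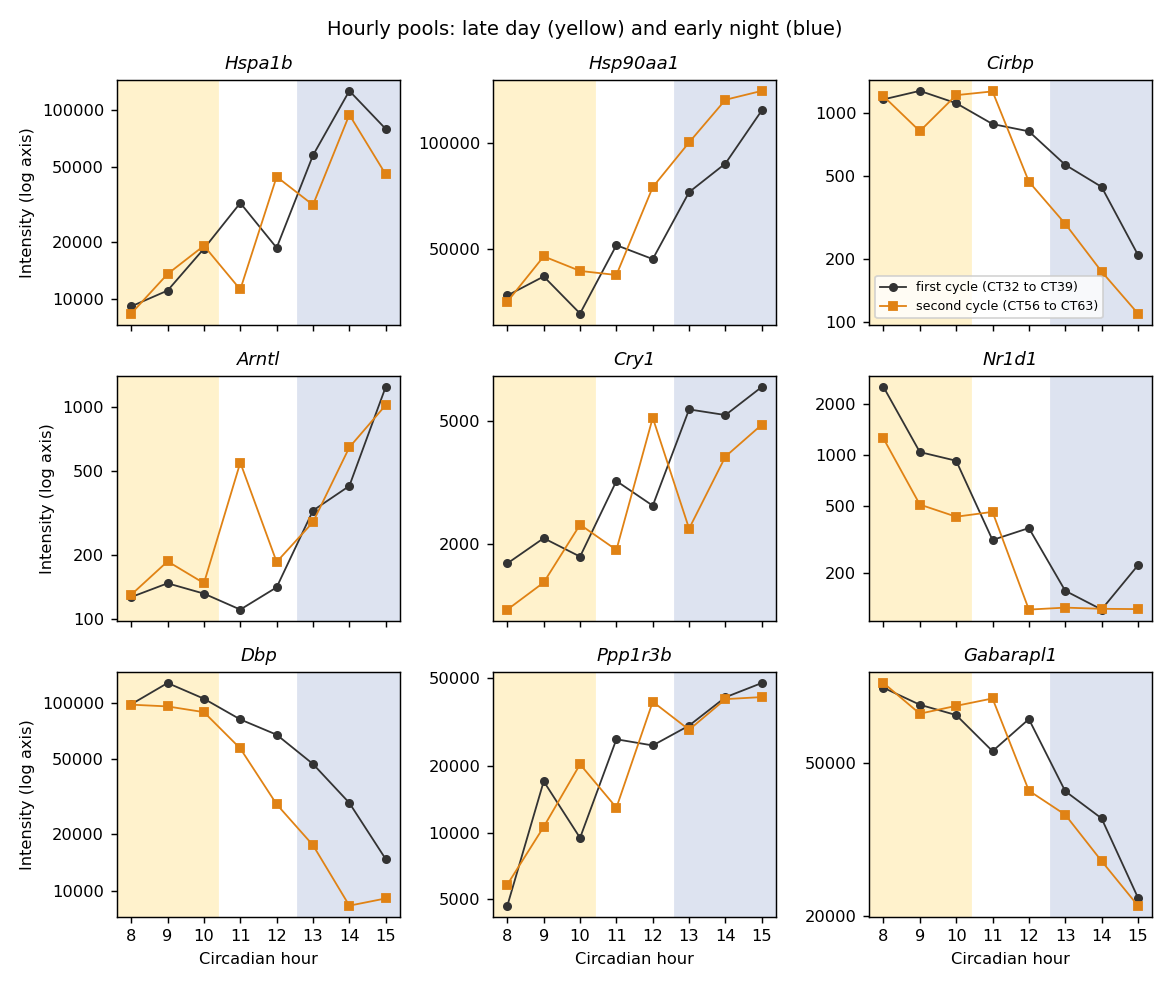
Intensity (y axis, log scale) of 9 genes at each circadian hour from 8 to 15 (x axis) in the first cycle (dark circles) and the second (orange squares), with the late day pools on yellow and the early night pools on blue. Hspa1b, Hsp90aa1, Arntl, Cry1 and Ppp1r3b climb and Cirbp, Nr1d1, Dbp and Gabarapl1 decline in both cycles, and Arntl has a single high pool at hour 11 of the second.

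In the clock, 2 of 4 activators rose, and of the 4 repressors called 3 fell. Arntl was at 126, 139 and 186 in late day and 285, 533 and 1240 in early night, without overlap, and rose by 1.97 ± 0.36 (adjusted p = 0.0119). Most of the rise came late in the window, as the pools at hour 13 were at 324 and 285 and those at hour 15 at 1240 and 1018. Its partner Clock rose by 0.70 ± 0.17 (adjusted p = 0.0357), from 1779 to 3242 in late day to 2502 to 5197 in early night, with overlap. The call of Clock was lost in each fit leaving out 1 of CT33, CT34, CT38, CT39, CT57, CT58, CT62 or CT63 (adjusted p = 0.0535 to 0.0887), and held without CT60 to CT65 (adjusted p = 0.012). Npas2, a substitute for CLOCK, was near the lowest intensities in both groups (67.3 to 88.8), and Rora, an activator of Arntl, changed by -0.02 ± 0.07. These 4 activators gave 2 calls higher and 0 lower.

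Of 11 repressors, 1 was called higher and 3 lower. Cry1, the late-phase cryptochrome, was at 1227, 1775 and 2309 in late day and 2241, 5037 and 6431 in early night (1.35 ± 0.21, adjusted p = 0.00686), and only CT61 lay within the late day range. Cry2 changed the other way, from 2359, 2920 and 3513 to 1258, 1721 and 2593 (-0.77 ± 0.14, adjusted p = 0.0121). Nr1d2, the REV-ERB beta gene, fell as Nr1d1 did, from 56823, 62986 and 66153 to 22531, 29367 and 44397 (-1.03 ± 0.17, adjusted p = 0.00783). Without CT60 to CT65, Cry1 was called (adjusted p = 5.48e-05), and Nr1d2 (0.057) and Cry2 (0.147) were not. No Period gene was called: Per1 changed by -0.67 ± 0.19 (adjusted p = 0.0668), Per2 by 0.75 ± 0.25 (0.106) and Per3 by -0.71 ± 0.40 (0.331). Per1 was called without CT32 (adjusted p = 0.0264) or CT37 (0.0233), where that early night pool was at 886 and the other 5 at 495 to 578.

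The remaining repressors were not called. Ciart changed by -1.43 ± 0.51 (adjusted p = 0.136), with a single early night pool, CT37, at 1102 and the others at 150 to 291. It was called without CT37 (adjusted p = 0.0371), without CT32 (0.0301) and without CT60 to CT65 (0.0335). Bhlhe40 was at 0.05 in cycle 1 and -1.20 in cycle 2 (-0.58 ± 0.24, adjusted p = 0.206). Nfil3, which competes with the PAR bZIP factors, changed by 0.42 ± 0.27 (adjusted p = 0.357) and was called without CT61 (0.66, adjusted p = 0.0393). Bhlhe41 was near the lowest intensities throughout (55.2 to 58.0).

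Direct outputs of the clock split by direction, with 4 of 10 called higher and 3 lower (4.45% and 6.6% of all genes were). All 3 PAR bZIP factors fell. Tef was at 15984, 17964 and 20047 in late day and 7444, 9022 and 14079 in early night (-0.88 ± 0.12, adjusted p = 0.00458), and Hlf fell by 0.64 ± 0.14 on the log2 scale (adjusted p = 0.0258). Tef and Hlf were not called without CT60 to CT65 (adjusted p = 0.382 and 0.684), where Dbp was (0.0145), and Hlf not in any fit leaving out 1 of CT33, CT56, CT57, CT58, CT62 or CT63 (0.0511 to 0.0688). Nampt, which sets the pace of NAD salvage, rose from 5806, 8716 and 10691 to 14120, 17012 and 19837 (1.0 ± 0.16, adjusted p = 0.00648). Lonrf3 rose by 0.90 ± 0.13 and Tspan4 by 0.66 ± 0.09 (adjusted p = 0.0056 and 0.00481), and Tsc22d3 was the last of the 4. Each of these 4 had every early night pool above every late day pool and was called without CT60 to CT65. Usp2, Wee1 and Leo1 changed by -0.67, -0.35 and 0.27 (adjusted p = 0.294, 0.352 and 0.389), and Wee1 was called without CT32 (-0.56, adjusted p = 0.0145).

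Genes of insulin signalling were called in 1 direction. Of 20 measured members 0 rose and 7 fell (35%, where 6.6% of all genes did), with a list median of -0.36. Insr, the insulin receptor, went from 12656, 13204 and 17275 to 3682, 6103 and 11353 (-1.22 ± 0.19, adjusted p = 0.00638), -0.74 in cycle 1 and -1.69 in cycle 2. Grb14, an adaptor that blocks the receptor, fell from 9350, 11772 and 12820 to 5689, 7317 and 8896 (-0.71 ± 0.09, adjusted p = 0.00414). The groups did not overlap for either gene. Irs2, the receptor substrate, fell by 0.82 ± 0.15 (adjusted p = 0.0126) at intensities of 46.7 to 176. Its early night pools were below the median intensity of their arrays, so the size of its fall is uncertain and may be understated. The transcription factor Foxo3 fell by 0.97 ± 0.18 (adjusted p = 0.013). Foxo1 fell by 0.93 ± 0.24 over both cycles (adjusted p = 0.0435), and was not called in any fit leaving out 1 of CT32, CT33, CT38, CT39, CT56, CT57, CT58, CT61, CT62 or CT63 (0.0524 to 0.105). Without CT60 to CT65, only Grb14 of the list was called (adjusted p = 0.000277), and Insr had an adjusted p of 0.0637.

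Of 20 autophagy genes 6 were called lower (30%, where 6.6% of all genes were) and 1 higher (5%, against 4.45%). Gabarapl1, an ATG8 protein of the growing membrane, went from 66801, 70832 and 80946 to 21332, 31929 and 42350 (-1.27 ± 0.17, adjusted p = 0.0042). The change without CT60 to CT65 was -1.14 (adjusted p = 3.41e-06). Atg14, a part of the lipid kinase complex that starts the membrane, fell by 0.92 ± 0.13 (adjusted p = 0.00514, and 0.0522 without CT60 to CT65). Bnip3, a mitophagy receptor, was the member that rose (0.46 ± 0.08, adjusted p = 0.00904). The fit without CT60 to CT65 called 3 lower and 1 higher.

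Most lipid and sterol genes were not called, and those that were went in either direction. Of all genes 4.45% were called higher and 6.6% lower. Cholesterol synthesis had 0 of 18 higher and 3 lower (16.7%), led by Hmgcs1, which makes HMG-CoA, at 93748, 120158 and 141011 in late day and 44966, 57688 and 77434 in early night (-1.01 ± 0.15, adjusted p = 0.0056). Nsdhl and the sterol carrier Stard4 fell by 0.50 ± 0.10 and 0.37 ± 0.07 (adjusted p = 0.0194 and 0.00961), and neither was called without CT60 to CT65 (0.123 and 0.698). Scap, the escort of SREBP, fell by 1.12 ± 0.20 (adjusted p = 0.0112), by 0.51 in cycle 1 and 1.72 in cycle 2, which differed (adjusted p = 0.0088). In fatty acid and triglyceride synthesis 2 of 22 rose and 4 fell. Elovl5, an elongase of polyunsaturated fatty acids, went from 72398, 88956 and 96448 to 28027, 34842 and 55524 (-1.18 ± 0.15, adjusted p = 0.00358). Agpat2, an acyltransferase of triglyceride assembly, and Thrsp, a lipogenic protein, rose by 0.47 ± 0.09 and 0.91 ± 0.19 (adjusted p = 0.0164 and 0.0187). Thrsp was not called without CT60 to CT65 (adjusted p = 0.249).

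Fatty acid oxidation and fasting genes had 0 of 24 higher and 3 lower (12.5%, where 6.6% of all genes were). Ppara, the nuclear receptor of the fasting response, went from 34095, 41459 and 53446 to 15856, 20045 and 30409 (-0.97 ± 0.12, adjusted p = 0.00339), and Plin2, a lipid droplet coat protein, fell by 0.72 ± 0.14 (adjusted p = 0.0133). Both were called without CT60 to CT65. In bile acid synthesis and transport 1 of 13 rose and 4 fell (30.8%, where 6.6% of all genes did). Abcb11, the bile salt export pump, was at 34209, 42815 and 50730 in late day and 16608, 22787 and 28837 in early night, without overlap (-0.93 ± 0.13, adjusted p = 0.0046). Abcb4, which exports phosphatidylcholine into bile, fell by 0.62 ± 0.07 (adjusted p = 0.00254), and Cyp8b1, the sterol 12-alpha-hydroxylase, by 1.05 ± 0.21 (adjusted p = 0.0158). These 3 were called without CT60 to CT65 as well (adjusted p = 0.00168, 0.00891 and 0.0185). Apolipoproteins and lipoprotein assembly had 4 of 16 lower (25%, against 6.6% of all genes) and 0 higher, and 1 lower without CT60 to CT65. In 3 members the step differed between the cycles, being lower in the second.

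Amino acid breakdown had 0 of 31 higher and 5 lower (16.1%, where 6.6% of all genes were). Cbs, the first enzyme of transsulfuration, went from 18523, 19984 and 24388 to 5432, 8896 and 15609 (-1.21 ± 0.20, adjusted p = 0.00856), -0.63 in cycle 1 and -1.80 in cycle 2. Hal, which breaks down histidine, fell by 1.01 ± 0.18 (adjusted p = 0.0103) and Agxt, an aminotransferase of glyoxylate, by 0.67 ± 0.12 (adjusted p = 0.0103). All 3 were called without CT60 to CT65, where the list had 3 members lower and 3 higher. In the first cycle 21 of its 31 members changed upward, and in the second 11. In xenobiotic metabolism 4 of 30 rose and 6 fell. Gclc, the catalytic subunit of glutathione synthesis, fell by 0.77 ± 0.11 (adjusted p = 0.00572), and Sult1d1, a sulfotransferase, rose by 0.84 ± 0.15 (adjusted p = 0.00949), the latter not without CT60 to CT65 (0.0981). In gluconeogenesis and glycolysis control 1 of 11 rose and 2 fell. The member that rose was Slc37a4, the glucose-6-phosphate transporter, at 22726, 28092 and 32496 in late day and 36010, 40463 and 44835 in early night (0.56 ± 0.09, adjusted p = 0.00698).

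ER chaperones gave 3 of 21 higher (14.3%, where 4.45% of all genes were) and 1 lower. Creld2 was at 5377, 7875 and 14315 in late day and 10926, 23722 and 35966 in early night (1.38 ± 0.33, adjusted p = 0.0336), and its values climbed with the hour within both groups, so that the ranges overlapped. Its call was lost in each fit leaving out 1 of CT32, CT33, CT38, CT39, CT56, CT57, CT62 or CT63 (adjusted p = 0.0633 to 0.0872), and held without CT60 to CT65 (0.0212). Manf, a secreted ER stress protein, rose by 1.05 ± 0.22 (adjusted p = 0.0197), and its adjusted p was 0.0506 without CT56, 0.0513 without CT62 and 0.0549 without CT60 to CT65. Hspa13, a microsomal HSP70, rose by 1.01 ± 0.15 (adjusted p = 0.00608), and all 3 of its other probe sets were called higher. Sil1, a nucleotide exchange factor, was lower by 0.52 ± 0.12 in size (adjusted p = 0.0288), with changes of -0.17 in cycle 1 and -0.86 in cycle 2, and was not called in any fit leaving out 1 of CT56, CT57, CT58, CT61, CT62 or CT63 (0.055 to 0.0739) or without CT60 to CT65 (0.907).

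Respiratory chain and ATP synthase subunits had 8 of 33 higher (24.2%, where 4.45% of all genes were) and 0 lower, by small amounts. Cycs, cytochrome c, rose by 0.39 ± 0.06 (adjusted p = 0.00649) and Ndufv2, of complex I, by 0.35 ± 0.07 (adjusted p = 0.0181). Without CT60 to CT65 no member was called (0 of 33), and their adjusted p-values were 0.172 and 0.166. In ribosome biogenesis and polyamine synthesis 4 of 30 rose and 1 fell. Odc1, the first enzyme of polyamine synthesis, rose by 0.84 ± 0.15 (adjusted p = 0.00993, 0.0601 without CT60 to CT65) and Wdr12, of the large ribosomal subunit's assembly, by 0.81 ± 0.12 (adjusted p = 0.00615, called there too). Eif1a, a translation initiation factor, rose from 7248, 7501 and 10704 to 11205, 14748 and 22849 (0.90 ± 0.15, adjusted p = 0.00864).

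Of 20 glucocorticoid targets, 5 were called higher (25%, where 4.45% of all genes were) and 2 lower. Without CT60 to CT65 these were 7 and 1. Fkbp5, which holds the glucocorticoid receptor inactive, rose from 2617, 3927 and 5759 to 6059, 8955 and 19468 without overlap (1.30 ± 0.26, adjusted p = 0.0173, and 0.0506 without CT56). Ddit4, an inhibitor of mTORC1, rose by 1.32 ± 0.34 over both cycles (adjusted p = 0.0431). Its call was lost in each fit leaving out 1 of CT32, CT33, CT37, CT39, CT56, CT57, CT62 or CT63 (adjusted p = 0.0754 to 0.104), and held without CT60 to CT65 (6.5e-05). Klf9, a transcription factor of the same list, fell from 148784, 227294 and 274693 to 67700, 107141 and 183225 (-1.01 ± 0.19, adjusted p = 0.012). Immediate early genes had 2 of 24 lower (8.33%, near the 6.6% of all genes) and 0 higher. Beside Egr1, Junb was called lower (-1.52 ± 0.25, adjusted p = 0.008), from 144 to 267 in late day to 49.9 to 135 in early night. Of its early night pools 5 were at 68.3 or lower, below the median intensity of their arrays. The size of its fall is therefore uncertain and may be understated.

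**Figure D4:**
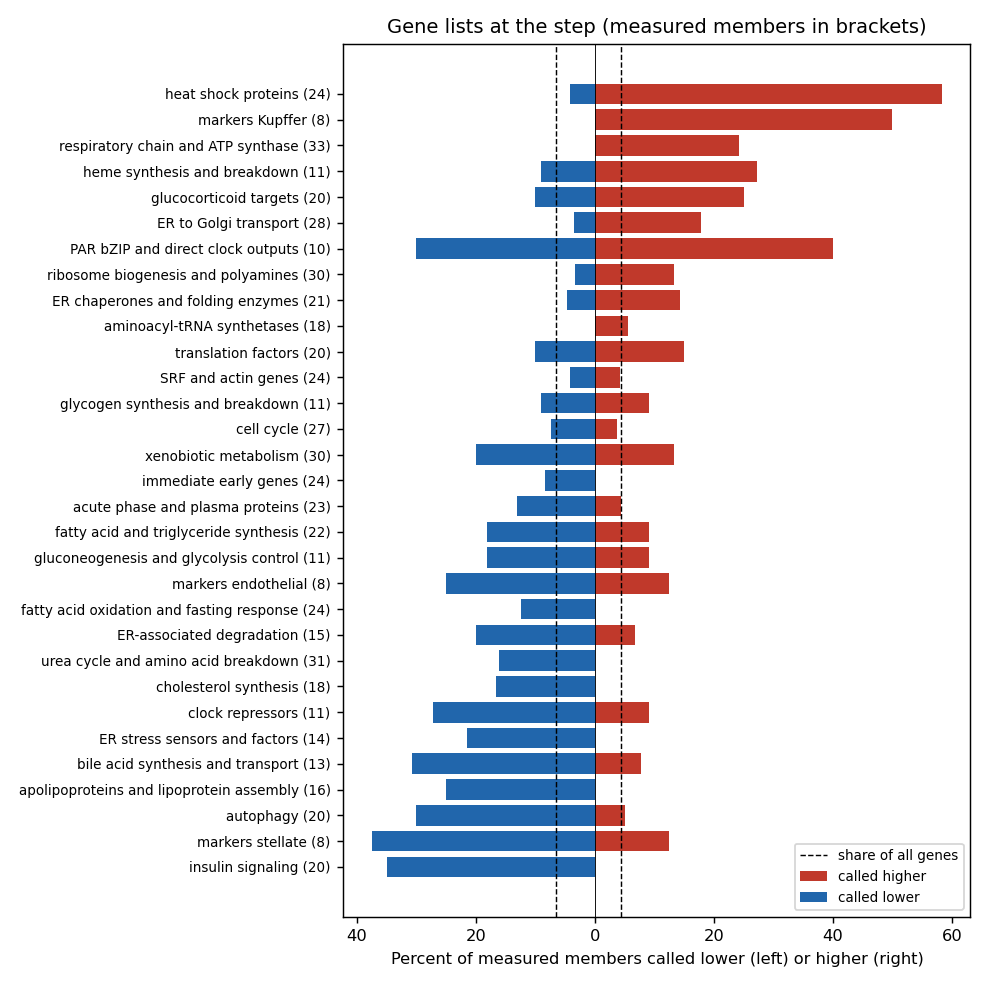
Share of the measured members of each gene list called higher (right, red) or lower (left, blue) in early night, in percent, with the number of members in brackets and the shares over all genes, 4.45% and 6.6%, as dashed lines. Heat shock proteins reach furthest to the right at 58.3%, and insulin signalling lies among the longest bars to the left at 35%.

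The liver pools carried hepatocyte markers at a like level throughout. Alb, Ttr and Apoa1 summed to 2317353 to 2479982 over the 12 pools, and 0 of the 3 were called. Of 8 Kupffer cell markers, 4 were called higher (50%, where 4.45% of all genes were) and 0 lower, and all 8 changed upward in both cycles. Their summed intensity was 49651 to 73971 in late day and 74626 to 98800 in early night. Vsig4, a complement receptor, rose by 0.66 ± 0.12, the macrophage antigen Adgre1 by 0.52 ± 0.08 and the complement subunit C1qb by 0.36 ± 0.05 (adjusted p = 0.0107, 0.0074 and 0.0048). The subunit C1qc rose by 0.49 ± 0.12 (adjusted p = 0.0375, and 0.0537 to 0.0903 in each fit leaving out 1 of CT32, CT38, CT39, CT56, CT57, CT58, CT61, CT62 or CT63). Without CT60 to CT65, 0 of the 8 were called. In these bulk pools, more cells of a type and more RNA per cell cannot be told apart.

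Endothelial markers had 1 of 8 higher and 2 lower, and their sum was 22395 to 28312 in late day and 28428 to 30489 in early night. Only 2 of the 8 changed upward over both cycles, and the median change was -0.40, so the higher sum does not stand for most of them. Clec4g, a lectin of sinusoidal endothelium, rose by 0.48 ± 0.08 (adjusted p = 0.00714), and Kdr, the VEGF receptor, fell by 0.88 ± 0.16 (adjusted p = 0.0105). Neither was called without CT60 to CT65 (adjusted p = 0.105 and 0.243). Lyve1 changed by 0.85 ± 0.24 (adjusted p = 0.0646) and was called without CT34 (0.0237), without CT61 (0.0414) and without CT60 to CT65 (0.00338). Stellate cell markers had 1 of 8 higher and 3 lower, among them the collagen gene Col3a1 (-0.83 ± 0.16, adjusted p = 0.0125). Dcn, a matrix proteoglycan, was the one that rose (0.32 ± 0.08, adjusted p = 0.0347), and its call was lost in each fit leaving out 1 of CT32, CT33, CT37, CT38, CT56, CT57, CT58, CT61 or CT62 (0.0515 to 0.0831). No stellate marker was called without CT60 to CT65. Bile duct, lymphocyte, neutrophil, erythroid and pancreatic acinar markers gave 0 calls. Of 2 adipocyte markers 1 was called higher, and their sum was 3934 to 5825 in late day and 5217 to 9565 in early night. Neither was called without CT60 to CT65. The part of these cell markers in the results above was not tested.

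The ratio of the 3' to the 5' control probe sets of Actb, a measure of RNA quality, was 4.23, 3.998 and 2.96 at CT32, CT33 and CT34 and 2.97 to 3.71 in the other pools. The same ratio of Gapdh was 0.988 to 1.13. Its part in the results was not tested.

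The pools at hours 11 and 12, which entered no group, were read in the called genes that changed by over 2-fold. In the first cycle their medians lay between the groups. The 43 genes that rose by over 2-fold had covered a median of 58.2% of their step at hour 11 and 51.0% at hour 12. For the 177 that fell by over 2-fold these were 53.7% and 42.6%. In the second cycle the same medians were 14.2% and 66.3% for these 43 genes and -2.84% and 25.5% for the 177. The order of hours 11 and 12 thus differed between cycles, with 1 pool at each.

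The step at dusk was compared with that at dawn (hours 1 to 3 minus hours 20 to 22), which shares no pool with it. At dawn 159 genes rose (0.874%) and 129 fell (0.709%). The steps differed in 930 genes upward at dusk over dawn (5.11%) and 1509 downward (8.29%). In probe sets these were 1753 and 2325 over both cycles and 67 and 28 in the first cycle alone, where the split turned. Among the genes so called were 556 of the 810 that rose at dusk and 927 of the 1201 that fell. The dusk step is itself a part of this difference, so a call at dusk favours a call here. Of the genes called at dusk, 18 were called in the same direction at dawn and 80 in the opposite. Some dawn arrays stood apart too, with median correlations of 0.9897 at CT25, 0.9888 at CT27 and 0.9904 at CT46. The 75th percentile of intensity was 1067.7 at CT26 and 1099.4 at CT27, where it was low at CT61 to CT63. The part of these arrays in the counts of opposite steps was not tested. The median dawn step was -0.10 for genes that rose at dusk and 0.15 for those that fell.

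Among genes called the same way at both were the 3 ER proteins: Creld2 rose by 1.38 at dusk and 2.01 at dawn, Manf by 1.05 and 1.12, and Hspa13 by 1.01 and 0.79. The difference of the steps had an adjusted p of 0.439, 0.880 and 0.498. Of the 21 ER chaperones 7 were called higher at dawn (0.874% of all genes were) and 0 lower, in the fit of dusk and dawn pools together. At dusk these were 3 and 1, in the unlike fit of the dusk pools alone. The list median was 0.36 at dawn and 0.06 at dusk. Tef fell at both, by 0.88 and 1.05 (difference 0.17, adjusted p = 0.705). Among genes called in opposite directions, Cry1 rose by 1.35 at dusk and fell by 1.02 at dawn, and Tsc22d3 rose by 1.54 and fell by 1.12 (difference 2.37 and 2.66, adjusted p = 7.16e-05 and 8.88e-05). Nampt, Lonrf3 and Tspan4 fell by 1.12, 1.06 and 0.96 at dawn, Thrsp by 1.29 and Nat8f5 by 1.10, and Agxt rose by 0.51 there (adjusted p of the difference at most 0.00039).

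The heat shock genes had dawn steps of either sign. The dawn step of Hspa1b was 1.51 ± 0.45 (adjusted p = 0.128) and that of Hsph1 0.98, and for neither was the difference from the dusk step called (adjusted p = 0.426 and 0.246). Hsp90aa1 had a dawn step of -0.09, and its difference from dusk was 1.53 (adjusted p = 5.76e-05). Hspe1 fell at dawn by 0.33 (adjusted p = 0.00947), and Hspb1 by 1.11 (adjusted p = 0.0191). Over the list 2 were called higher at dawn and 2 lower, in the fit of dusk and dawn pools together. At dusk these were 14 and 1, in the unlike fit of the dusk pools alone. The steps differed in 12 of 24. Cirbp had a dawn step of 0.07, which differed from its fall at dusk (difference -2.18, adjusted p = 0.00676).

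**Figure D5:**
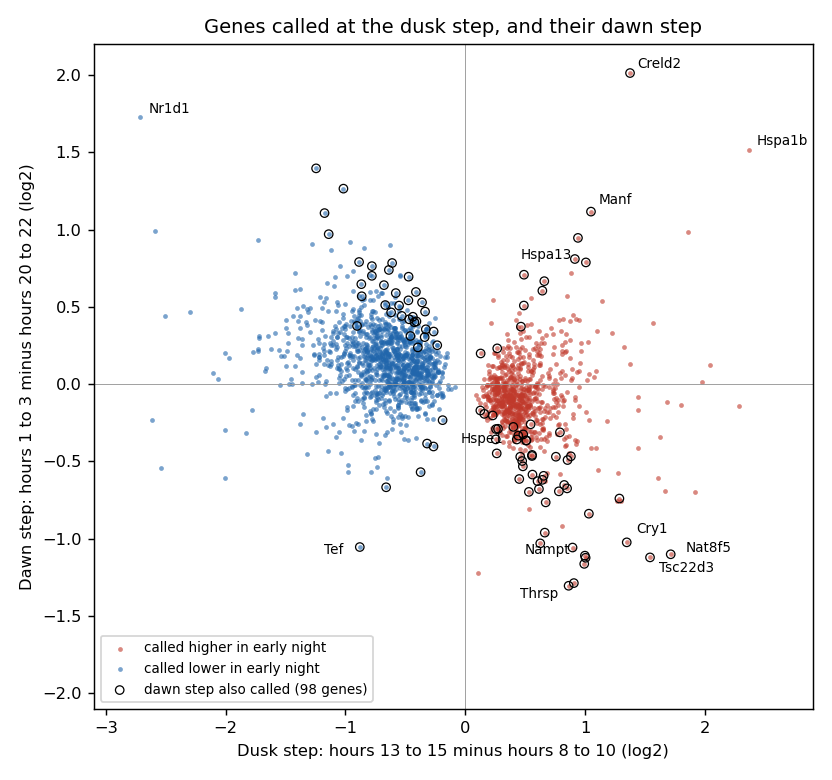
Dawn step (y axis, log2 intensity, hours 1 to 3 minus hours 20 to 22) against dusk step (x axis, log2 intensity, hours 13 to 15 minus hours 8 to 10) of genes called higher (red) or lower (blue) at dusk, with circles around the 98 genes also called at dawn. Creld2, at 1.38 and 2.01, stands at the upper right among genes called upward at both, and Cry1, at 1.35 and -1.02, at the lower right.

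The step differed between the cycles in 670 genes, 70 with a higher value in the second cycle (0.385%) and 600 with a lower one (3.3%). In probe sets these were 167 and 899, the latter 363 under quantile normalization and 294 without CT56, and leaving out 1 pool moved the former to between 42 and 640. Of the genes that fell at dusk 213 were among these, and of those that rose 16. The genes with the smallest p-values had flat values in 9 pools and a shift in the last 3, downward in 8 of 10. Alg3, a mannosyltransferase, was at 869 to 1304 in the pools from CT32 to CT58 and at 228, 247 and 258 at CT61, CT62 and CT63 (0.10 in the first cycle, -1.96 in the second). Trim28, a corepressor, was at 5561 to 7227 and then at 1912, 2190 and 2127, and Tmem131 at 4168 to 5100 and then at 1092, 1126 and 1404. The difference between cycles had an adjusted p of 0.000792 for each of the 3. Of the 12 pools these 3 had the arrays that correlated least with the others, and the share of array and of liver in these drops cannot be told apart.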

How the data were processed

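Liver RNA of 48 hourly pools (CT18 to CT65, 1 array each) was labelled with biotin and hybridized to Affymetrix whole-genome mouse arrays. The authors extracted intensity values from the scans with GCRMA in R, per the methods of the study, while the labels of the samples name MAS5, whose version is not given in the sources used here. The deposited intensity values are on a linear scale from 20.6 to 1218382.7, and log2 of them was taken here. Depth has no meaning for arrays, and their number (6 a group) limits the precision. Of 45101 probe sets, 49.5% had a mean under 100, where changes may be understated, which was not tested.

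Each group was read from the circadian time in the sample's label. Early night was compared with late day by limma 3.58.1 in R 4.3.3 (lmFit and eBayes, cycle as covariate, 9 residual degrees of freedom, two-sided), Benjamini-Hochberg over all 45101 probe sets, called at an adjusted p under 0.05. The same tool gave the difference of the step between cycles and between dusk and dawn. The dawn step came from the latter fit, of the dusk and dawn pools together. Probe sets were named from the platform annotation: 34958 had 1 gene symbol, 932 several and 9211 none. For each of 18193 genes the brightest probe set (by its mean over 48 pools) was used. Probe sets ending in _s_at or _x_at can read related genes. Promoters came from RefSeq (GRCm38.p6), matched by symbol.

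Named were the 15 largest rises and 15 largest falls among called genes whose groups did not overlap in either cycle, the 6 members of each list with the smallest p, all clock, output and marker genes, the 10 called genes that differed most between dusk and dawn and the 10 with the smallest p of the cycle difference. From these the text gives a selection, and further heat shock genes, Ddit4, Foxo1 and Hspa1a were added after their values were seen. The 12 pools and the 41 lists were chosen with earlier results of these data known. Data were simulated for this comparison (45101 probe sets, 50 changed at each size). In them 66% were recovered at 1.5-fold, 92% at 2-fold, 100% at 3-fold and 96% at 4-fold, with 12 false calls. The simulated noise was independent between pools, with no cycle effect and no shared shift of CT61 to CT63. These shares and false calls therefore do not cover such shifts. Alternatives were each cycle alone, each pool left out, CT61 to CT63 left out, no cycle covariate, quantile normalization, an added 32 before log2, a minimum mean of 100, 1 probe set per gene, all 48 pools in 1 fit, a trended robust prior and, added after seeing the data, hour means without CT60 to CT65.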

Additional observations from a re-analysis of the deposited data

Results flagged for a closer look

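Single pools stood far from the other 5 of their group (Dixon's test at the 95% level) in 15 of the 232 groups of named genes, and chance gives such a pool in about 1 of 20 groups. In late day these were Cirbp at 816 and Tenm3 at 1076, both lowest at CT57, Scap at 10312 and Grb14 at 9350, both lowest at CT58, Rora at 8241 (lowest, CT34), Stard4 at 15178 (lowest, CT32) and Trim28 at 6196 (lowest, CT56). In early night CT37 was the highest pool for Per1 (886), Ciart (1102), Junb (135) and Agxt (40521). CT61 was the lowest for Nfil3 (586) and Leo1 (194) and the highest for Npas2 (88.8). Angptl8 was lowest at CT63 (15599).

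The step differed between the cycles, with a lower value in the second, by -2.04 in Tenm3 (adjusted p = 0.0175), -0.69 in Sil1 (0.016), -1.21 in Scap (0.0088) and -1.17 in Cbs (0.0186), by limma's interaction of cycle and window. The same test gave -2.06 in Alg3, -1.48 in Trim28 and -1.84 in Tmem131 (adjusted p = 0.000792 each).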

How the results depend on the processing

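Over both cycles 1473 probe sets were called higher and 2011 lower. Quantile normalization turned this split to 1904 and 1563. The fit of all 48 pools gave 2370 and 2818. Fewer were called with no cycle covariate (863 and 807), without CT60 to CT65 (955 and 617), without CT61 to CT63 (11 and 16) and in the first cycle alone (0 and 0, with 2059 and 1941 at an unadjusted p under 0.05). The second cycle alone gave 1449 and 2776. Leaving out 1 pool gave 751 to 2034 higher and 953 to 2492 lower. The drop was over 1.5 times for probe sets higher without CT32 (977), CT56 (751), CT57 (795), CT58 (924) or CT62 (822), and for those lower without CT56 (953), CT57 (1024), CT58 (1067), CT62 (1086) or CT63 (1320). A minimum mean of 100, 1 probe set per gene, the added 32 and the trended prior kept both counts within 1.5 times. The cause of these shifts was not tested, beyond the fewer pools of some fits. Of 3484 probe sets called, 3118 kept call and direction in the fit of all pools, 2948 under quantile normalization and 886 without CT60 to CT65.

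The dusk step was over the dawn step in 1753 probe sets and under it in 2325, and in the first cycle alone in 67 and 28. Leaving out 1 pool gave 1353 to 2219 and 1756 to 3261. The step was higher in the second cycle in 167 probe sets and lower in 899. The latter were 1358 at a minimum mean of 100 and 363 under quantile normalization, and leaving out 1 pool gave 42 to 640 and 294 to 1600. Of the genes named, signs changed only where the change was not called. In the first cycle alone and without CT61 to CT63, Bhlhe40 was at 0.046, Usp2 at 0.084, Bhlhe41 at -0.0026, Alg3 at 0.10 and Tmem131 at 0.0052. Without CT60 to CT65, Npas2 was at -0.12 and Alg3 at 0.15. Under quantile normalization Bhlhe41 was at -0.0027 and Rora at 0.021. Rora was at 0.0026 in the second cycle alone and at -0.062 to 0.0093 with 1 pool left out, above 0 without CT38, CT39 or CT62. Single pools of late day and early night were not paired, because the labels give circadian times and no replicate numbers. The cycle entered the fit as a covariate.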
